A study of Mus musculus with 6 samples.

Results

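The T cell receptor beta locus of the mouse was analyzed in bulk RNA-seq libraries of Tregs, as the usage of its variable (Trbv), diversity (Trbd), joining (Trbj) and constant (Trbc) genes. Its members were taken as every row of the count table whose symbol begins with Trbv, Trbd, Trbj or Trbc followed by a digit. This gave 53 of 32285 rows: 35 Trbv, 2 Trbd, 14 Trbj and 2 Trbc. Tregs, CD4+ T cells that restrain immune responses, were sorted as CD4+CD25+ cells from spleens of C57BL/6 mice, with 3 libraries per group. KO libraries came from ERCre+Zfp335f/f mice, in which Zfp335, a zinc finger transcription factor gene, is flanked by loxP sites. WT libraries came from mice that the labels call wild-type littermates and the study's methods call ERCre mice, so that by the methods the Cre and tamoxifen were common to both groups. In ERCre mice a Cre recombinase fused to a modified estrogen receptor is active only while tamoxifen is present, and it is not restricted to Tregs. By the methods, tamoxifen at 10 mg/mL was injected on days 1, 3 and 5 from the age of 6 weeks, and the mice were killed on day 7. Whether the libraries of a group came from separate animals is not stated, so that p values measure the spread between these libraries.

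A T cell makes its beta chain by joining 1 Trbv, 1 Trbd and 1 Trbj segment in the thymus, after which the joined exon is spliced to Trbc1 or Trbc2. The joint forms the third hypervariable loop, the part of the chain that contacts the peptide. Mature T cells do not rearrange the locus again, so in a sorted population the mix of segments reflects which clones are present. Bulk libraries give the mix over all cells: a segment used by fewer cells and a segment with less RNA per cell cannot be told apart, and neither the pairing of segments nor the number of clones is read from segment counts.

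Zfp335 fell from 124.4, 120.6 and 115.1 CPM in WT replicates 1, 2 and 3 to 14.95, 14.27 and 15.12 CPM in KO replicates 1, 2 and 3. CPM are counts relative to the library size, scaled by the TMM method and given on the scale that edgeR uses for CPM. Fold changes and their p values come from the quasi-likelihood test of edgeR and were adjusted by the Benjamini-Hochberg method across 17307 genes. The libraries held between 133283969 and 209041812 counts, and the 53 members took between 0.157% and 0.174% of them. Xist, the RNA that coats the inactive X chromosome, was between 0.187 and 0.424 CPM in the WT libraries and between 123.9 and 144.7 CPM in the KO libraries, while the Y-linked gene Ddx3y was counted in all 6, between 98.26 and 105.2 CPM in WT and between 76.61 and 80.01 CPM in KO. The sex and the number of the animals behind each library are not given, and the effect of genotype cannot be told apart from that of this difference. All 8 Treg genes listed were counted in every library. Of these, 3 were called higher in KO (Ctla4, Tnfrsf4 and Tnfrsf18) and 2 lower (Foxp3 and Il2ra). Of all tested genes, 12.0% were called higher and 12.1% lower. Foxp3, the defining transcription factor, was between 1119 and 1154 CPM in WT and between 1046 and 1062 CPM in KO. Its log2 fold change was -0.11 (adjusted p = 0.0163, edgeR's quasi-likelihood test). Markers of other spleen cells were counted in all libraries, and many were lower in KO. Of the B cell genes 7 of 7 fell, and their summed level was between 745.2 and 820.1 CPM in WT and between 543.0 and 552.3 CPM in KO, most of it Ighm. Of the myeloid genes 6 of 7 fell, while Csf1r, a receptor of macrophages, was higher in every KO library without passing the test (log2 fold change 0.22, adjusted p = 0.0821, edgeR's quasi-likelihood test). Of the red cell genes 5 of 5 fell, and of the tested gamma-delta T cell genes 6 of 7 fell, the latter with summed levels between 27.14 and 29.87 CPM in WT and between 18.37 and 20.71 CPM in KO. CD8 T cells and NKT cells also carry beta chains: 1 of 3 CD8 T cell genes and 1 of 4 NK and NKT cell genes fell, with summed levels of the CD8 list between 19.94 and 21.04 CPM in WT and between 17.52 and 18.00 CPM in KO. The gene of the CD8 list that fell was Eomes, a transcription factor that other lymphocytes also use, while Cd8a and Cd8b1 overlapped between the groups. The NK and NKT cell gene that fell was Klra8, with a mean of 0.51 CPM in WT and 0.21 CPM in KO. The part of these cells in the results on the beta locus was not tested.

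The members lie on chr6:40891229-41558452 of GRCm38, a stretch of 667 kb. Trbv1 stands first, 155 kb before Trbv2. Trbv2 to Trbv30 then follow in a row, and a gap of 251 kb separates Trbv30 from Trbd1. Each Trbd heads a cluster of 7 Trbj segments and 1 constant gene. Trbv31 lies behind Trbc2 on the opposite strand. The annotation lists 22 of the Trbv rows as genes and 13 as pseudogenes.

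The ends that meet in the third loop are shown for the segments on which the results turn, as annotated in GENCODE for GRCm38, before any bases are trimmed or added at the joint. First come the last 30 bases of Trbv segments, with the letters TGTGCN in capitals, which hold the cysteine codon that opens the loop. They belong to the most abundant segment and its family relatives and to the segments at either end of the locus. Also shown are Trbv3, Trbv30 and the annotated pseudogene Trbv24, to which the values return below.
Trbv13-1: catctttgtacttcTGTGCCagcagtgatg
Trbv13-2: catcagtgtacttcTGTGCCagcggtgatg
Trbv13-3: cagctgtatatttcTGTGCCagcagtgatg
Trbv1: cagaaccttgtactgcacctgcagtgcaga
Trbv3: gtgtacttcTGTGCCagcagcttagccaca
Trbv24: agcactgtagctcTGTGCCagcagtctgta
Trbv30: cagcagtatctatttctgtagttctagaga
Trbv31: ctctggcttctacctcTGTGCCtggagtct
These letters are absent from the last 30 bases of Trbv1 and Trbv30. That does not show that the cysteine codon is missing there, because TGTGCN also fixes the bases after the codon and does not cover its other form. The whole Trbd segments are shown next, followed by the Trbj segments that are most abundant, that differ between the groups in every library or that lack the common motif. In the Trbj lines the capitals mark TTNGGNNNNGGN, the stretch that codes for the conserved turn that closes the loop.
Trbd1: GGGACAGGGGGC
Trbd2: GGGACTGGGGGGGC
Trbj2-7: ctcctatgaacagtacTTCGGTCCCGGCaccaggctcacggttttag
Trbj2-1: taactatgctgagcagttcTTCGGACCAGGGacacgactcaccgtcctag
Trbj2-4: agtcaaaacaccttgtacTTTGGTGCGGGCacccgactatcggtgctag
Trbj1-6: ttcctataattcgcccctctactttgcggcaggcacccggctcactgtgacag
Trbj1-7: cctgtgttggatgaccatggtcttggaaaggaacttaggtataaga
Trbj2-6: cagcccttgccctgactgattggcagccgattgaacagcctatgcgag
The motif was found on the coding strand of 11 of the 14 Trbj segments and on the opposite strand of none. For comparison, 1.16% of 259 windows of 50 bases in Trbv and Trbc transcripts held it on the coding strand and 1.93% on the opposite strand.

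Trbv usage was nearly the same in WT and KO Tregs. A Trbv share is the count of 1 segment divided by the summed counts of all Trbv segments in that library, so it does not depend on the scaling between libraries. The 17 segments with a mean share of at least 2% together took between 95.5% and 95.9% of the Trbv counts, which numbered between 50698 and 70399 per library. At these counts the 95% Wilson interval of a share was at most 0.289 percentage points to either side, an error of counting alone that does not include the copying of fragments before sequencing. The effective number of segments, the exponential of the Shannon entropy of the shares, was 17.59, 17.65 and 17.86 in WT replicates 1, 2 and 3 and 17.80, 17.76 and 17.83 in KO replicates 1, 2 and 3. It differed by 0.0988 (KO minus WT), with a p of 0.4 in a two-sided exact permutation test, in which 3 libraries against 3 cannot go below 0.1. The order of the segments by mean share was close in both groups, with a Spearman correlation of 0.994 across the 21 segments with a mean share of at least 0.5%, given as a description, since segments of 1 library are not independent.

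**Figure D1:**
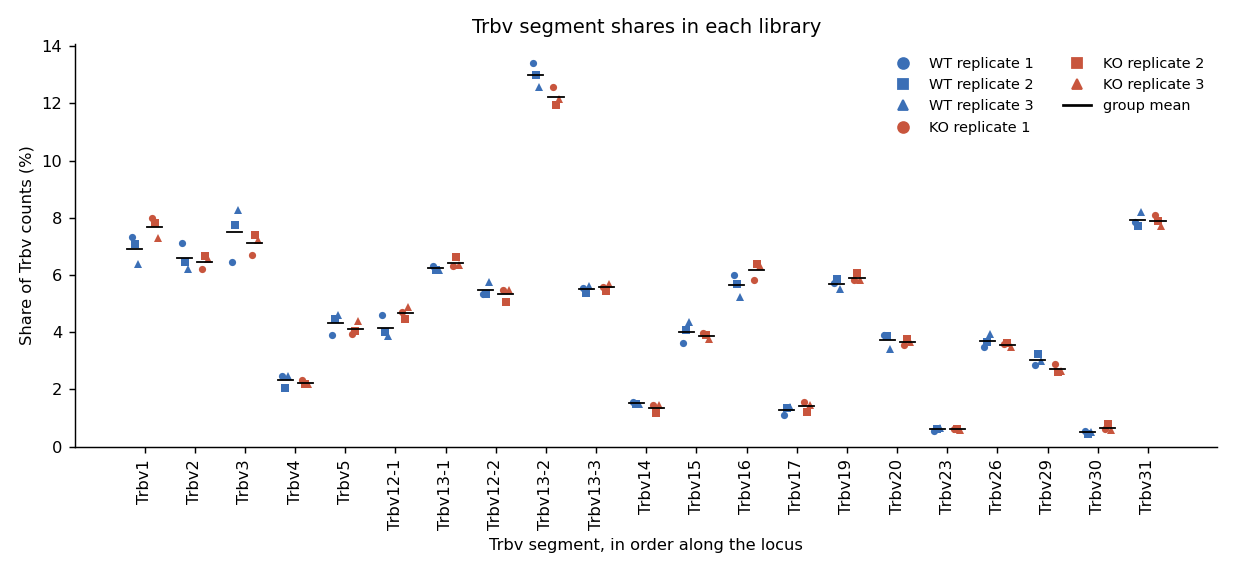
Share of the summed Trbv counts (%) taken by each of the 21 Trbv segments with a mean share of at least 0.5%, in order along the locus, with 1 point per library (WT blue, KO red; circles, squares and triangles for replicates 1, 2 and 3) and a line at each group mean. Trbv13-2 stands highest in all 6 libraries, between 11.95% and 13.43%, and for most segments the points of both groups overlap.

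Trbv13-2, known earlier as the second member of the V beta 8 family and a frequent segment in C57BL/6 T cells, was the most used and the only member that passed the test. It stood at 45.98, 46.78 and 47.36 CPM in WT replicates 1, 2 and 3 and at 44.14, 40.56 and 40.66 CPM in KO replicates 1, 2 and 3. All KO values lay below all WT values. Trbv13-2 fell in KO by 10.5%, with a log2 fold change of -0.16 (SE 0.044, 95% interval -0.26 to -0.065) and an adjusted p of 0.0183 in edgeR's quasi-likelihood test. Its share was 13.43%, 13.00% and 12.57% in WT and 12.57%, 11.95% and 12.14% in KO, so that WT replicate 3 and KO replicate 1 were equal after rounding. The call depended on which libraries were included. After WT replicate 2 was dropped, the adjusted p in edgeR's quasi-likelihood test was 0.0724. It was 0.106 on dropping KO replicate 2 and 0.0893 on dropping KO replicate 3. The log2 fold changes there were -0.159, -0.139 and -0.141. Dropping WT replicate 1, WT replicate 3 or KO replicate 1 kept the call, at -0.174, -0.151 and -0.200. The adjusted p was 0.0094, 0.0355 and 0.0131. Of all tested genes, 2088 were called lower with every library and 1399, 1414 and 1483 in the fits that lost the call. Those that kept it gave 2501, 2059 and 1447. With counts scaled to the summed Trbv counts, not the whole library, the Trbv13-2 log2 fold change was -0.091 and the adjusted p 0.274.

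Of the 53 members, 42 passed the filter on low counts and were tested: 24 Trbv, 2 Trbd, 14 Trbj and 2 Trbc. At an adjusted p under 0.05, 0 were higher and 1 was lower in KO, or 2.38% of those tested, against 12.0% of all tested genes called higher and 12.1% called lower. At an unadjusted p under 0.05, 1 was higher and 3 were lower, and 0 were called higher by DESeq2 or limma-voom as well. The median log2 fold change was -0.02 over the members and -0.0042 over all tested genes, and the median of its size without sign was 0.10 and 0.15. The median SE was 0.095 for the members and 0.077 for all tested genes. For the 17 segments above 2%, log2 fold changes ran from -0.23 to 0.099, and no 95% interval reached below -0.41 or above 0.23. 14 of them were below 0 and 3 above.

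**Figure D2:**
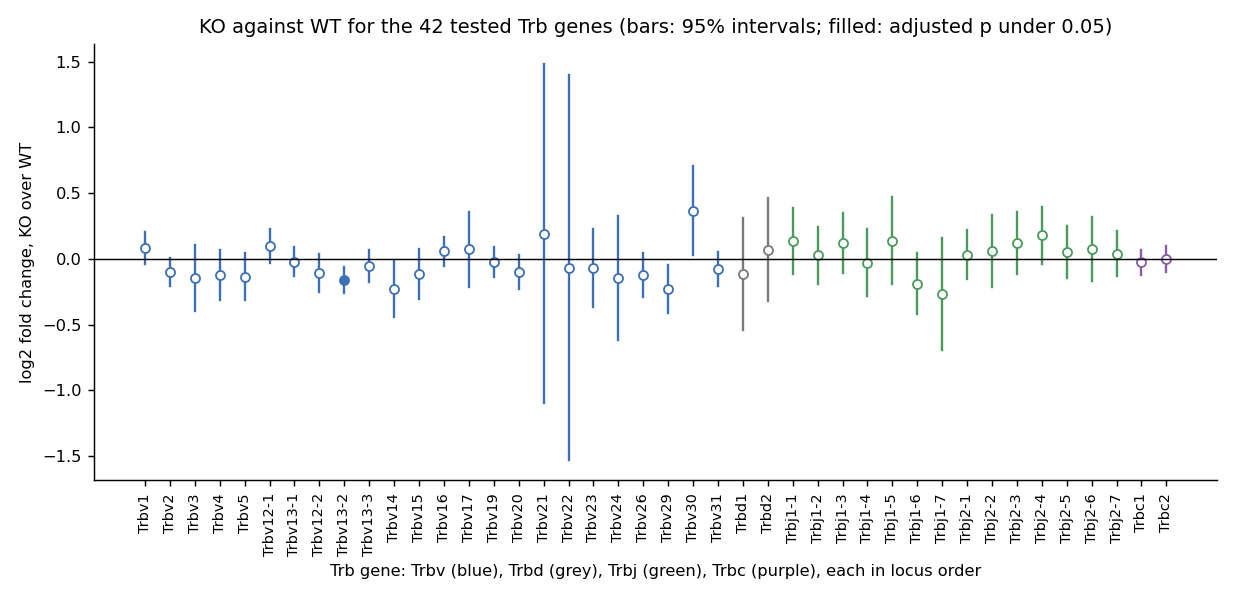
Log2 fold change of KO over WT for the 42 tested members from edgeR's quasi-likelihood test, grouped as Trbv, Trbd, Trbj and Trbc and in locus order, with bars for the 95% intervals. The filled point is Trbv13-2 (-0.16), the only member with an adjusted p under 0.05, and the widest intervals belong to the rarely counted Trbv21 and Trbv22.

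The relatives of Trbv13-2 stood closer between the groups. Trbv13-1 took 6.32%, 6.19% and 6.18% of the Trbv counts in WT replicates 1, 2 and 3 and 6.32%, 6.63% and 6.35% in KO replicates 1, 2 and 3. Trbv13-3 took 5.54%, 5.38% and 5.60% in WT and 5.57%, 5.46% and 5.68% in KO. Trbv13-1 was highest in KO replicate 2, and its highest WT and lowest KO share were both 6.32% after rounding, while those of Trbv13-3 overlapped throughout. Their log2 fold changes were -0.02 (SE 0.051, adjusted p = 0.799) and -0.05 (SE 0.056, adjusted p = 0.55) in edgeR's quasi-likelihood test, and both changed sign when counts were scaled to the summed Trbv counts. The 3 sequences are between 86.1% and 90.6% identical, but Trbv13-2 shares only 1 stretch of 50 bases with Trbv13-3 and 0 with Trbv13-1. Summed over the 3 rows, the family took 25.29%, 24.57% and 24.35% in WT and 24.46%, 24.04% and 24.17% in KO, which overlapped.

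The Trbv12 segments alternate with the Trbv13 segments along the locus and are the family once called V beta 5. Trbv12-1 took 4.59%, 4.02% and 3.87% in WT and 4.70%, 4.47% and 4.88% in KO. Trbv12-2 took 5.35%, 5.34% and 5.74% in WT and 5.47%, 5.05% and 5.49% in KO. Both overlapped between the groups: for Trbv12-1, WT replicate 1 lay among the KO libraries, and for Trbv12-2, KO replicate 2 was the lowest of all. Their log2 fold changes were 0.099 (adjusted p = 0.275) and -0.11 (adjusted p = 0.293, edgeR's quasi-likelihood test). The annotated pseudogene Trbv12-3 had a mean share of 0.00959% in WT and 0.0132% in KO.

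At the far ends of the locus stand Trbv1 and Trbv31, of which Trbv31 joins by inversion because it lies in the opposite direction. Trbv31, the second most used segment by count and per base of transcript in both groups, took 7.86%, 7.72% and 8.21% in WT and 8.10%, 7.87% and 7.70% in KO. Trbv1 took 7.32%, 7.08% and 6.37% in WT and 7.98%, 7.81% and 7.29% in KO. The highest WT library of Trbv1 stood just above the lowest KO library, and the Trbv31 libraries of the groups were mixed. In CPM, the log2 fold changes were 0.08 for Trbv1 (SE 0.057, adjusted p = 0.35) and -0.08 for Trbv31 (SE 0.059, adjusted p = 0.398) in edgeR's quasi-likelihood test.

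Among Trbv2 to Trbv5, Trbv3 varied most, at 6.46%, 7.76% and 8.27% in WT and 6.70%, 7.40% and 7.24% in KO. Its log2 fold change was -0.15, with the wide interval of -0.39 to 0.10. WT replicate 1 was the lowest and WT replicate 3 the highest of all 6 libraries, so that the KO libraries lay inside the WT range. Trbv2 took 7.14%, 6.45% and 6.22% in WT and 6.20%, 6.65% and 6.56% in KO. Trbv5 took 3.90%, 4.47% and 4.58% in WT and 3.92%, 4.04% and 4.404% in KO. Trbv2 ran the other way across the WT libraries, with replicate 1 at the top, and Trbv5 resembled Trbv3. Trbv4 took 2.47%, 2.05% and 2.46% in WT and 2.31%, 2.20% and 2.20% in KO, and overlaps the gene 5830405F06Rik in the annotation, as does Trbv5.

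From Trbv15 to Trbv29, the groups overlapped for every segment above 2%. Trbv15 took 3.61%, 4.07% and 4.35% in WT and 3.98%, 3.89% and 3.76% in KO. Trbv16 took 6.01%, 5.69% and 5.22% in WT and 5.82%, 6.37% and 6.31% in KO. WT replicate 3 was the highest library for Trbv15 and the lowest for Trbv16. Trbv19 took 5.71%, 5.85% and 5.53% in WT and 5.81%, 6.06% and 5.81% in KO. Trbv20 took 3.91%, 3.86% and 3.42% in WT and 3.56%, 3.77% and 3.65% in KO. Neither of these lay on 1 side in KO, and the lowest value of both was in WT replicate 3. Trbv26 took 3.48%, 3.67% and 3.95% in WT and 3.59%, 3.63% and 3.47% in KO. Trbv29, the lowest of the segments above 2% apart from Trbv4, took 2.84%, 3.24% and 2.99% in WT and 2.89%, 2.59% and 2.65% in KO. For Trbv29 only KO replicate 1 reached into the WT range. It was next to the threshold, at a log2 fold change of -0.23 (SE 0.085) and an adjusted p of 0.0655 in edgeR's quasi-likelihood test.

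Over the 21 segments with a mean share of at least 0.5%, the shares of 2 were higher in every KO library than in any WT library (Trbv13-1 and Trbv30) and those of 2 were lower (Trbv13-2 and Trbv14), or 9.52% in each direction. Of all tested genes, divided by the same Trbv sums, 24.4% were higher and 11.9% lower without overlap. The smallest adjusted p of the 21 exact permutation tests was 0.525, but with 3 libraries against 3 none could fall below 0.1 whatever the shares. Trbv30 was the segment with the widest relative difference: it took 0.538%, 0.427% and 0.515% in WT and 0.599%, 0.784% and 0.594% in KO, with a log2 fold change of 0.37 (SE 0.16, adjusted p = 0.114, edgeR's quasi-likelihood test). It is the segment nearest to the Trbd genes on the forward strand. Trbv14 took 1.55%, 1.48% and 1.495% in WT and 1.44%, 1.18% and 1.45% in KO, with a log2 fold change of -0.23 and an adjusted p of 0.122. In CPM, which count against the whole library, 2 of the 42 tested members were higher in every KO library (4.76%) and 5 lower (11.9%), against 19.3% and 19.1% of all tested genes.

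The WT libraries differed among themselves as much as from the KO libraries. Between 2 libraries, the sum of the share differences divided by 2 gives the percentage of Trbv counts that would have to change segment to make both alike. It was between 2.999% and 5.17% for the 3 pairs of WT libraries, between 2.21% and 2.90% for the 3 pairs of KO libraries and between 2.65% and 5.25% for the 9 pairs of 1 WT and 1 KO library. WT replicate 1 and WT replicate 3 were the farthest pair of WT libraries, and the lowest value of a mixed pair was that of WT replicate 1 and KO replicate 1. Across the 21 segments, the variance of a share between libraries of a group had a median of 9.99 times the binomial variance in WT and 5.93 times in KO, so that the spread between libraries was larger than counting error.

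**Figure D3:**
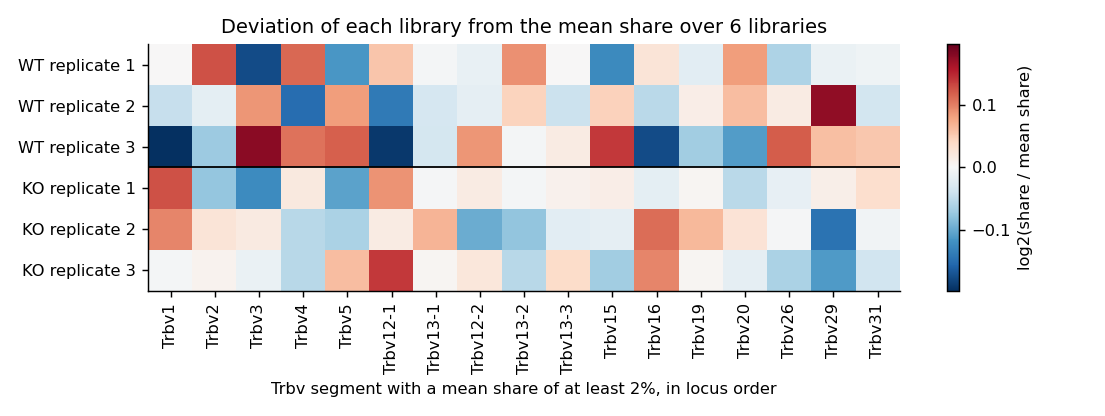
Log2 of each library's share over the mean share of all 6 libraries, for the 17 Trbv segments with a mean share of at least 2% (columns, in locus order) in the 3 WT and 3 KO libraries (rows), with red above and blue below the mean. WT replicate 1 and WT replicate 3 have opposite colors for Trbv3 (-0.18 and 0.18) and Trbv15 (-0.13 and 0.14).

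Leaving out WT replicate 1 changed the picture of the shares most. The shares of 5 of the 21 segments were then higher (Trbv1, Trbv12-1, Trbv13-1, Trbv16 and Trbv30) and those of 8 lower (Trbv3, Trbv5, Trbv13-2, Trbv14, Trbv15, Trbv23, Trbv26 and Trbv29) in every KO library, against 39.8% and 14.1% of all tested genes divided by the same sums. With fewer libraries, groups that do not overlap are easier to reach. For all tested genes the values with all 6 libraries were 24.4% and 11.9%, and for the 21 segments they were 9.52% in each direction. Here too, all genes were divided by a Trbv sum that was lower in KO. In both directions together, 13 segments did not overlap without WT replicate 1. Leaving out any other library gave 5 or 6, and all 6 libraries gave 4. Why WT replicate 1 weighed more was not tested. In edgeR's quasi-likelihood test without that library, 5 members passed the threshold, all lower in KO: Trbv13-2, Trbv3 (adjusted p = 0.00158), Trbv29 (adjusted p = 0.00751), Trbv5 (adjusted p = 0.00986) and Trbv15 (adjusted p = 0.0289). No label sets this library apart from the others, and this alternative stands beside the results with all 6 libraries, in which 1 member passed.

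Spread within the groups could be compared over 36 members with at least 1 CPM in both. The coefficient of variation, the SD divided by the mean, had a median of 9.07% in WT and 4.38% in KO for these members and of 4.92% and 3.19% for 11819 genes at that level. It was larger in WT for 31 of 36 members (86.1%) and for 68.3% of the genes.

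Rarely used segments split by annotation with few exceptions. The 13 annotated pseudogenes together took 0.313%, 0.276% and 0.420% of the Trbv counts in WT and 0.297%, 0.342% and 0.306% in KO. Most of this was Trbv24, at 0.249%, 0.257% and 0.371% in WT and 0.249%, 0.304% and 0.257% in KO. The other 12 pseudogenes had between 13 and 40 counts per library in total. Trbv21 was the exception on the other side, an annotated gene with a mean share of 0.0258% in WT and 0.0299% in KO. Trbv7, Trbv11, Trbv18, Trbv27 and Trbv28 had 0 counts in every library, which allows a share of up to 0.00592% of the Trbv counts in the smallest library and 0.00426% in the largest, for counting error alone.

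Trbv segments differ in annotated transcript length, so their levels were also compared as counts per base, as a share of the sum of all Trbv counts per base. Trbv13-2 came first with 15.02% ± 0.503 (SD, n = 3) in WT and 14.14% ± 0.338 (SD, n = 3) in KO. Trbv31 came second with 7.49% ± 0.235 in WT and 7.46% ± 0.18 in KO. Below these in WT came Trbv13-1 (6.69% ± 0.0844), Trbv1 (6.52% ± 0.466), Trbv3 (6.48% ± 0.803) and Trbv13-3 (6.36% ± 0.13), and each differed from its neighbor in this order by less than the larger SD of the pair. In KO, Trbv1 (7.26% ± 0.337) came next, ahead of Trbv13-1 (6.92% ± 0.198), Trbv13-3 (6.44% ± 0.122) and Trbv3 (6.15% ± 0.327). These places rest on the annotated lengths.

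The Trbd segments are 12 and 14 bases long, and their counts were few, between 235 and 375 per library over both. Trbd1 stood at 0.775, 0.966 and 0.892 CPM in WT and 0.852, 0.767 and 0.815 CPM in KO. Trbd2 stood at 0.945, 1.003 and 0.854 CPM in WT and 0.987, 1.037 and 0.94 CPM in KO. Both overlapped between the groups, with log2 fold changes of -0.12 (SE 0.20) and 0.07 (SE 0.18). The Trbd2 share of the Trbd counts was 54.95%, 50.93% and 48.94% in WT and 53.66%, 57.49% and 53.55% in KO. The counting interval of a single library reached up to 6.34 percentage points to either side. The group means differed by 3.29 points (KO minus WT), with a p of 0.3 in the exact permutation test, and the groups overlapped.

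Trbj shares were also close in WT and KO. Whether the counts on the short Trbj and Trbd rows come from joined and spliced transcripts cannot be told from these counts. All Trbj segments are between 46 and 53 bases long, and a library held between 6764 and 12474 counts over the 14 segments, which gives a 95% Wilson interval of at most 0.835 percentage points to either side of a share. None of the 14 passed the test, with log2 fold changes between -0.27 and 0.18, of which 11 were above and 3 below 0, and adjusted p values of 0.229 or more. Trbj2-7 took the most, at 13.88%, 14.15% and 14.34% of the Trbj counts in WT and 13.94%, 14.05% and 13.73% in KO. Trbj2-1 followed with 12.94%, 12.74% and 12.64% in WT and 12.63%, 12.20% and 12.91% in KO. These 2 segments overlapped between the groups and held the same places in each, as did Trbj2-3, Trbj2-5 and Trbj2-4 in the places after them.

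The shares of 1 Trbj segment were higher in every KO library (Trbj2-4) and those of 1 were lower (Trbj1-6), against 7.88% and 18.1% of all tested genes divided by the same Trbj sums. Trbj2-4 took 8.21%, 8.65% and 7.81% in WT and 8.88%, 9.09% and 9.03% in KO. Trbj1-6 took 4.94%, 5.51% and 6.62% in WT and 4.67%, 4.79% and 4.59% in KO. For Trbj1-6 the gap rested on WT replicates 2 and 3, with WT replicate 1 only just above KO replicate 2. The smallest adjusted p of the 14 exact permutation tests was 0.6, and these tests too could not fall below 0.1. Trbj1-7, next to Trbj1-6 and also without the motif, was the least counted at 1.46%, 1.76% and 2.43% in WT and 1.25%, 1.47% and 1.59% in KO. Trbj2-6, annotated as a pseudogene and without the motif, still took 5.67%, 5.20% and 5.71% in WT and 5.46%, 5.77% and 5.49% in KO. Its counts were thus above those of Trbj2-2, an annotated gene, in all 6 libraries.

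**Figure D4:**
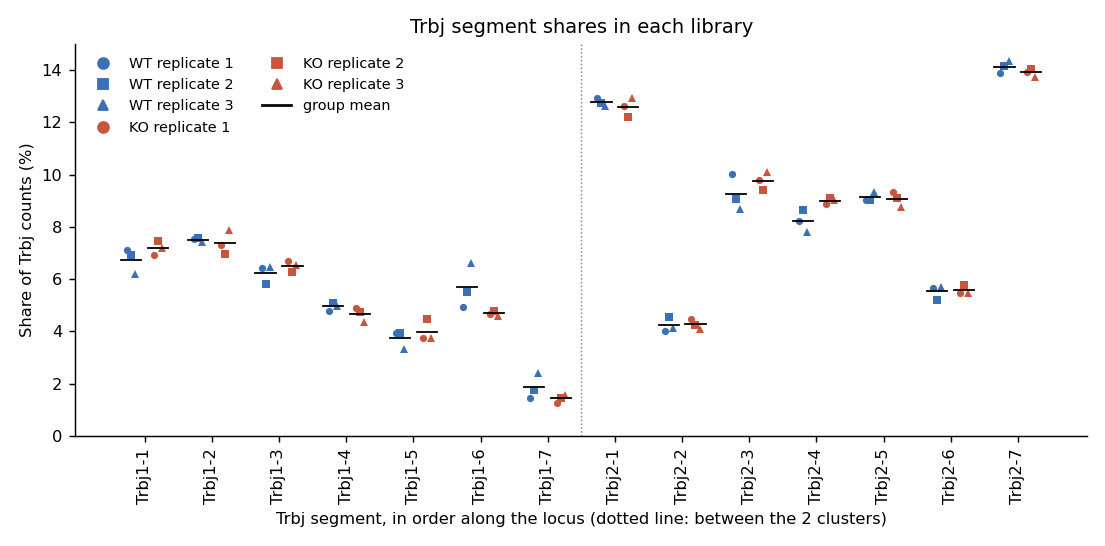
Share of the summed Trbj counts (%) taken by each of the 14 Trbj segments in locus order, with 1 point per library (WT blue, KO red; circles, squares and triangles for replicates 1, 2 and 3), a line at each group mean and a dotted line between the clusters. Trbj2-7 and Trbj2-1 stand above 12% in every library, and WT replicate 3 stands apart from the KO libraries for Trbj1-6, at 6.62%.

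Trbj cluster 2, the 7 segments before Trbc2, took 63.79%, 63.39% and 62.60% of the Trbj counts in WT and 64.50%, 63.85% and 64.11% in KO. The difference was 0.894 percentage points (KO minus WT), and all KO libraries lay above all WT libraries by a narrow margin, with a p of 0.1 in the exact permutation test, the smallest that this design allows. For a single Trbj segment the counting interval reached up to 0.835 percentage points to either side. That of the cluster share was not computed. Trbc2 took 71.16%, 70.97% and 70.82% of the Trbc counts in WT and 71.17%, 71.32% and 71.47% in KO, a difference of 0.34 points with the same p of 0.1. WT replicate 1 and KO replicate 1 were again next to each other. Trbc1 and Trbc2 code for nearly the same constant region: they are 90.7% identical over 677 aligned bases, and 40.5% of the 50-base stretches of Trbc1 are found in Trbc2. How reads that match both were assigned is not given in the sources used here, so the split between them is uncertain.

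The levels of the constant genes did not separate the groups. Trbc1 stood at 380.4, 353.5 and 333.7 CPM in WT and 358.0, 349.0 and 341.4 CPM in KO, and Trbc2 at 938.4, 864.2 and 809.9 CPM in WT and 883.9, 868.0 and 855.2 CPM in KO. Both were highest in WT replicate 1 and lowest in WT replicate 3, with the KO libraries between them. Their log2 fold changes were -0.03 (SE 0.044, 95% interval -0.12 to 0.068) and -0.0032 (SE 0.046, 95% interval -0.10 to 0.095), and both changed sign when counts were scaled to the summed Trbv counts or WT replicate 1 was left out.

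The classes of segments did not move together across the WT libraries. Summed Trbv levels were 342.3, 359.9 and 376.7 CPM in WT replicates 1, 2 and 3 and 351.3, 339.4 and 334.8 CPM in KO replicates 1, 2 and 3. Summed Trbj levels were 61.52, 57.10 and 50.26 CPM in WT and 59.31, 60.14 and 57.65 CPM in KO. WT replicate 3 was thus the highest library for Trbv and the lowest for Trbj, and WT replicate 1 the highest for Trbj. WT replicate 3 was the lowest library for 12 of the 14 Trbj segments and the highest for 10 of the 17 Trbv segments above 2%. The ratio of Trbc to Trbv counts was 3.85, 3.38 and 3.04 in WT and 3.54, 3.59 and 3.57 in KO, with KO inside the WT range. The ratio of Trbc to Trbj counts was 21.44, 21.33 and 22.76 in WT and 20.94, 20.24 and 20.76 in KO, lower in every KO library, with a p of 0.1 in the exact permutation test.

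**Figure D5:**
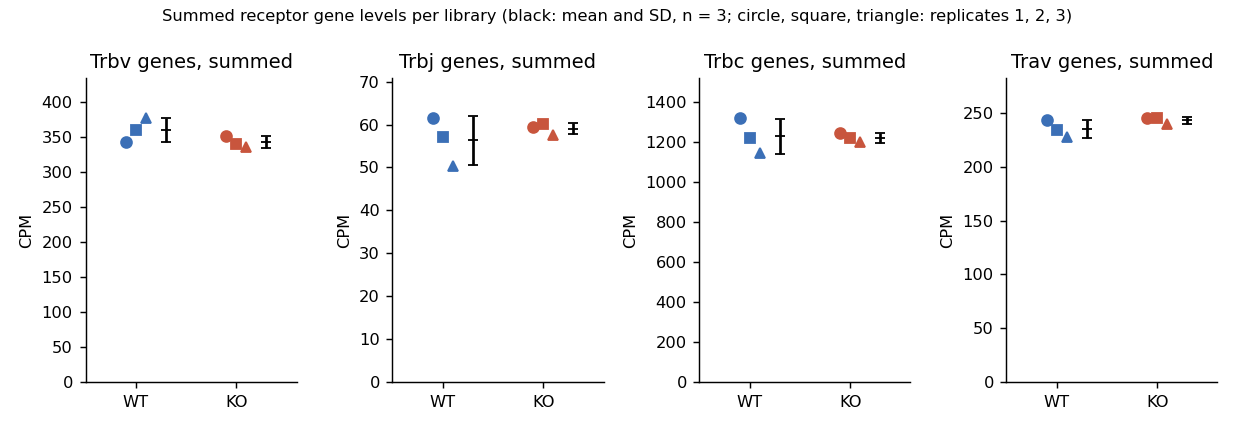
Summed levels (CPM) of the Trbv, Trbj, Trbc and, for comparison, alpha chain variable (Trav) genes in each library (WT blue, KO red; circles, squares and triangles for replicates 1, 2 and 3), with the mean and SD of each group (n = 3) in black. The 3 KO libraries lie within the range of the WT libraries for Trbj and Trbc, and WT replicate 3 is highest for Trbv (376.7 CPM) and lowest for Trbj (50.26 CPM).

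Other genes of the receptor were compared from fixed lists, whose counts stand against the 12.0% of all tested genes called higher and the 12.1% called lower. Of 6 genes of the alpha chain constant region, the CD3 signaling chains and CD4, 0 rose and 1 fell: Cd3g, the CD3 gamma chain, went from 324.5, 336.8 and 359.1 CPM in WT to 315.3, 308.1 and 316.5 CPM in KO, with a log2 fold change of -0.12 (SE 0.038, adjusted p = 0.0401, edgeR's quasi-likelihood test). Trac, the constant gene of the alpha chain, had a log2 fold change of -0.09 (SE 0.035, adjusted p = 0.077). The median of the 6 was -0.07. The 128 Trav rows summed to 244.1, 234.5 and 227.7 CPM in WT and 245.2, 245.5 and 239.8 CPM in KO, which overlapped. Among 9 tested genes of receptor assembly, 0 rose and 3 fell, with a list median of -0.08: Lig4, a DNA ligase of end joining (log2 fold change -0.24), Xrcc6, a subunit of the Ku complex (-0.18), and Rag1, a subunit of the recombinase that cuts the locus. Rag1 was at or near 0 in all libraries, between 0.0989 and 0.289 CPM in WT and between 0 and 0.0415 CPM in KO. Of the 9 tested genes between or beside the Trb segments, 0 passed the test, with a list median of -0.43 from rarely counted genes. Ephb6, the receptor gene just beyond Trbv31 and the only one of these with a sizable level, stood at 84.96, 76.50 and 75.91 CPM in WT and 77.40, 76.79 and 74.93 CPM in KO.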

How the data were processed

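The authors deposited raw read counts per gene symbol for 6 bulk RNA-seq libraries, not normalized, made from 200 ng total RNA with a TruSeq kit. The submitters' notes name HISAT2, DESeq2 and mm10. The counter, its annotation, strand setting and treatment of reads with several matches are not given in the sources used here. All 6 count columns were used. Depth was between 133283969 and 209041812 counts per library.

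Genes were tested in R 4.3.3 with edgeR 4.0.16 (quasi-likelihood test, legacy method off, robust, TMM, filterByExpr, Benjamini-Hochberg over 17307 genes). The test was tested on simulated data. Shares and ratios were compared by two-sided exact permutation tests. Sequences, positions and lengths come from GENCODE for GRCm38, the build called mm10. Any member could be named, with values in every library for Trbv segments of at least 2% mean share, Trbd, Trbc and called members. Other values, such as those of Trbv14, Trbv24, Trbv30 and single Trbj segments, were chosen after their values were seen. The members and gene lists were chosen with earlier results of these data known. Alternatives were other scalings and filters, DESeq2 1.42.0, limma-voom 3.58.1, a replicate block, and leaving out libraries or rows.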

Additional observations from a re-analysis of the deposited data

How the results depend on the processing

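The count of members called lower in KO was 1 in most alternatives; it was 2 with upper-quartile factors, 2 with library sizes alone and 0 with library sizes set to the summed Trbv counts, and ran from 0 to 5 when a library was left out (5 without WT replicate 1; 0 without WT replicate 2, KO replicate 2 or KO replicate 3). The count called higher was 0 in every one. For Trbv13-2, the log2 fold change stayed below 0 in all 17 alternatives, with an adjusted p under 0.05 in 13 and between 0.00628 and 0.274 over all. Segments with shares that did not overlap numbered 4, and 2 with the Trbv12 and Trbv13 rows summed, 2 without Trbv13-2 and 2 at a minimum share of 2%. With a library left out, they numbered 13 without WT replicate 1 and 5 or 6 without any other library. The effective number differed by 0.0988, and by -0.032 without Trbv13-2. The Trbj cluster 2 difference of 0.894 points became 0.191 points per segment as a mean over its segments without Trbj2-7, a different quantity by construction.

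Signs were followed for 25 genes: the 21 Trbv segments with a mean share of at least 0.5%, both Trbd and both Trbc. Of these, 18 kept their sign in all 17 alternatives and 7, none of them called, changed it in some. Trbj and rarer Trbv segments were not in this count. With library sizes set to the summed Trbv counts, log2 fold changes turned to 0.041 for Trbc1, 0.064 for Trbc2, 0.047 for Trbv13-1, 0.017 for Trbv13-3, 0.048 for Trbv19 and 2.9e-04 for Trbv23; this scaling moved the median of all genes to 0.065 and the calls to 2381 higher and 1103 lower. Without a filter, Trbc2 turned to 4.5e-05. With a library left out, log2 fold changes ran from -0.0696 to 0.022 for Trbc1, from -0.0517 to 0.052 for Trbc2, from -0.0481 to 0.0039 for Trbv13-1, from -0.0692 to 0.18 for Trbv17 and from -0.0575 to 0.0032 for Trbv19. The cause was not tested.

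The numbers of the replicates are not stated to pair libraries, and same-numbered libraries deviated together with correlations of 0.028, 0.0082 and 0.033 across all tested genes and of -0.34, 0.22 and 0.57 across the tested members. A replicate block gave 1 member lower and 0 higher, while the differences of the effective number (0.0988), the Trbj cluster 2 share (0.894) and the Trbc2 share (0.34) cannot change under a block in a design of 3 against 3. Depth limits the Trbd values and the segments under 0.5%.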
